A study of Mus musculus with 5 samples.

Results

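The 37 genes described here encode proteins that cells need to pass through mitosis. They were taken as a named list and are 37 of the 28692 genes in the count tables, and all 37 symbols were found once. Their UMIs (unique molecular identifiers, each standing for 1 captured RNA molecule) were summed over cells of 5 immune classes in 5 libraries. These classes held 22178 of 37468 cell barcodes. All libraries were made from living leukocytes, sorted by their CD45 surface protein out of B16-F10 melanomas grown under the skin of mice. Tumors were taken 11 days after 500000 cells had been implanted, and RNA was counted from its 5′ end in single cells. The libraries were PBS (saline), anti-PD1 (an antibody against the inhibitory receptor PD-1), IL15 superagonist (an activating form of the cytokine interleukin 15), combination (IL15 and anti-PD1 given as separate agents) and fusion (anti-PD1 and IL15 joined in 1 protein). Each treatment had 1 library. For combination the sample title names the superagonist as the IL15 agent, while the treatment entry says IL15 without that word. The mouse strain, the age of the mice, the doses and the number of mice per library were not stated in the labels, which word the treatment as following resection.

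A cell that divides copies its DNA in S phase, then builds a spindle of microtubules that pulls the copies apart in mitosis, and finally cuts itself in 2 by cytokinesis. Most genes for the last steps are transcribed from late S phase to mitosis and are nearly silent in resting cells, so their RNA marks dividing cells. CD8 T cells divide when they meet antigen, and interleukin 15 is known for driving division of natural killer (NK) cells and of CD8 T cells. Regulatory T cells (Treg), macrophages and dendritic cells can also divide within tumors. Neutrophils and dendritic cells in their mature, migrating state rarely do.

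The promoters of mitosis genes are known for CCAAT boxes, which bind the factor NF-Y, and for the cell cycle homology element TTTGAA (in some genes its variant TTCGAA), which binds the MuvB complexes. RefSeq gave a start site on build GRCm38.p6 for 31 of the 37 genes, as 32 sequences since Prc1 has more than 1 start. Among the 31, 24 had CCAAT on either strand (ATTGG is its reverse) within 250 bases before the start, which is 77.4%, against 33.8% of 32851 promoters of all genes. The homology element, on either strand (TTCAAA is the reverse of its main form), was found in 10 of 31, or 32.3%, against 17.1% of all. Both motifs were found in 9 of 31, or 29.0%, against 6.02%. In their letters a CCAAT box and a homology element can share no more than an edge base. The E2F sites of S-phase genes, searched as TTTGGCGC and in a further form as TTTCGCGC, were found in 1 of 31, or 3.23%, against 0.654% of all. A match is a run of letters and not a tested site, and a lack of one holds for the RefSeq start used. Annotated starts can differ from it. The Kif2c window (chr4:117178773-117179022) lies inside the annotated span of the gene (chr4:117159639-117182639). The windows of Cdca8, Cdca3 and Kif4 also lie wholly inside their annotated genes, and all of these hold CCAAT and count among the 24. Some other windows overlap their annotated gene in part.

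The windows of 5 members are shown, 200 bases before the RefSeq start, 5′ to 3′ along the gene, with the CCAAT box and the homology element, on either strand, in capitals. Ccnb2 was chosen for the largest ratio in the results, Mki67 and Top2a for their wide use as proliferation markers and their several motifs. Kif11 was chosen for 1 copy of each motif close to the start, and Mad2l1 as a member with neither at its RefSeq start. The annotated Mad2l1 gene starts at chr6:66535390, beyond the end of its window, so the bases just before that start were not searched. No exon of the GENCODE annotation overlaps these windows, which lie at chr9:70421555-70421754 on the minus strand for Ccnb2, chr7:135716380-135716579 on the minus strand for Mki67, chr11:99024190-99024389 on the minus strand for Top2a, chr19:37376182-37376381 on the plus strand for Kif11 and chr6:66535021-66535220 on the plus strand for Mad2l1.
Ccnb2: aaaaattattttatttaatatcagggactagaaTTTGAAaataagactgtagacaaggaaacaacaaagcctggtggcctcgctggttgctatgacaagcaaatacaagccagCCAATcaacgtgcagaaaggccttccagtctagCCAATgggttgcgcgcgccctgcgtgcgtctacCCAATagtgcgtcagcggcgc
Mki67: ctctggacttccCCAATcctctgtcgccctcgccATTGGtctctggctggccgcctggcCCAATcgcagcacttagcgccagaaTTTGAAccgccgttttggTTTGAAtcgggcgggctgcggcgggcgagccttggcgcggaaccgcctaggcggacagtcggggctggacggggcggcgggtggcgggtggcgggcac
Top2a: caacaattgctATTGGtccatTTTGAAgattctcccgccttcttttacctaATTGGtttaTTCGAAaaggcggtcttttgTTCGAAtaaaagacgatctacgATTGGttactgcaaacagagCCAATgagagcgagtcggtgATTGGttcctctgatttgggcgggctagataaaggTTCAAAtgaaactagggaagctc
Kif11: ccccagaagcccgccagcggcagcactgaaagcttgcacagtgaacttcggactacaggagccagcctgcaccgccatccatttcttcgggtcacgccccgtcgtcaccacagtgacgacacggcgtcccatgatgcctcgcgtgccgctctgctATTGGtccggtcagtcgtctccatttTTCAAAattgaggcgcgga
Mad2l1: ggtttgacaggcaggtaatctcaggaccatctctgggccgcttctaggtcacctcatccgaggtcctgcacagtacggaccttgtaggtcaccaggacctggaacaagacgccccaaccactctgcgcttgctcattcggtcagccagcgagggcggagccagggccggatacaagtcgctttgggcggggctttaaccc

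In Kif11 the CCAAT box began 45 bases and the homology element 19 bases before the start, and in Ccnb2 there were 3 CCAAT boxes, at 87, 54 and 21 bases. Members with and without a CCAAT box did not stand far apart in the results below. In CD8 T-like cells of fusion against PBS, the median log2 ratio was 0.47 over the 24 genes with the box and 0.65 over the 7 without. The 37 genes lie on 17 chromosomes, with 7 of them (Spc25, Bub1, Bub1b, Aurka, Tpx2, Nusap1 and Ube2c) on chromosome 2.

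Classes were set by counts of marker RNAs, and their sizes differed between libraries. CD8 T-like cells numbered 956 for PBS, 1131 for anti-PD1, 2010 for IL15 superagonist, 3261 for combination and 6561 for fusion. Macrophage-like cells numbered 346 to 1523, dendritic-like 66 to 498, NK-like 110 to 687 and Treg-like 15 to 144. Median UMIs per barcode were 4279 to 7851, and highest in fusion. Since the gates used these markers, their levels describe the classes and do not test the names. In CD8 T-like cells the T-cell list (Cd3d, Cd3e, Cd3g, Trac, Cd8a, Cd8b1) summed to 4335 to 5873 CPM (UMIs per 1000000 UMIs of the class) and the myeloid list to 21.6 to 81.8 CPM. In macrophage-like cells the T-cell list was at 8.39 to 13.9 CPM in 4 libraries and 38.6 in fusion. NK-like and Treg-like cells held more RNA of other lineages. In NK-like cells Ncr1, an NK receptor, was at 431 to 512 CPM, and Lyz2, a myeloid lysozyme, at 246 to 796 CPM and above Ncr1 in 4 of 5 libraries. In Treg-like cells Foxp3, the factor that defines them, was at 402 to 640 CPM, and H2-Ab1, an antigen-presenting molecule of myeloid and B cells, at 24.6 to 2722 CPM and above Foxp3 in 3 of 5, anti-PD1 being the highest. Pairs of libraries shared 61 to 104 cell barcodes, at most 1.37% of the smaller library. Treatments could not be tested against each other with a single library each, and intervals (95%) cover counting error only.

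The summed level of the mitosis genes was highest in CD8 T-like cells of the fusion library. In CD8 T-like cells it was 2242 CPM for PBS, 2244 for anti-PD1, 1217 for IL15 superagonist, 1414 for combination and 3519 for fusion. Fusion was thus the highest and IL15 superagonist and combination the lowest, and no intervals of these 5 overlapped except those of PBS and anti-PD1. In NK-like cells the levels were 431, 843, 179, 291 and 1704 CPM in the same order. In Treg-like cells they were 2404, 2293, 787, 1401 and 960 CPM, although the superagonist and fusion values came from only 52 and 15 cells. In macrophage-like cells they were 431, 395, 620, 291 and 367 CPM, and in dendritic-like cells 607, 643, 946, 585 and 1191 CPM, the last from 66 cells. The superagonist library therefore held the lowest level among lymphocyte classes and the highest among macrophages.

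**Figure D1:**
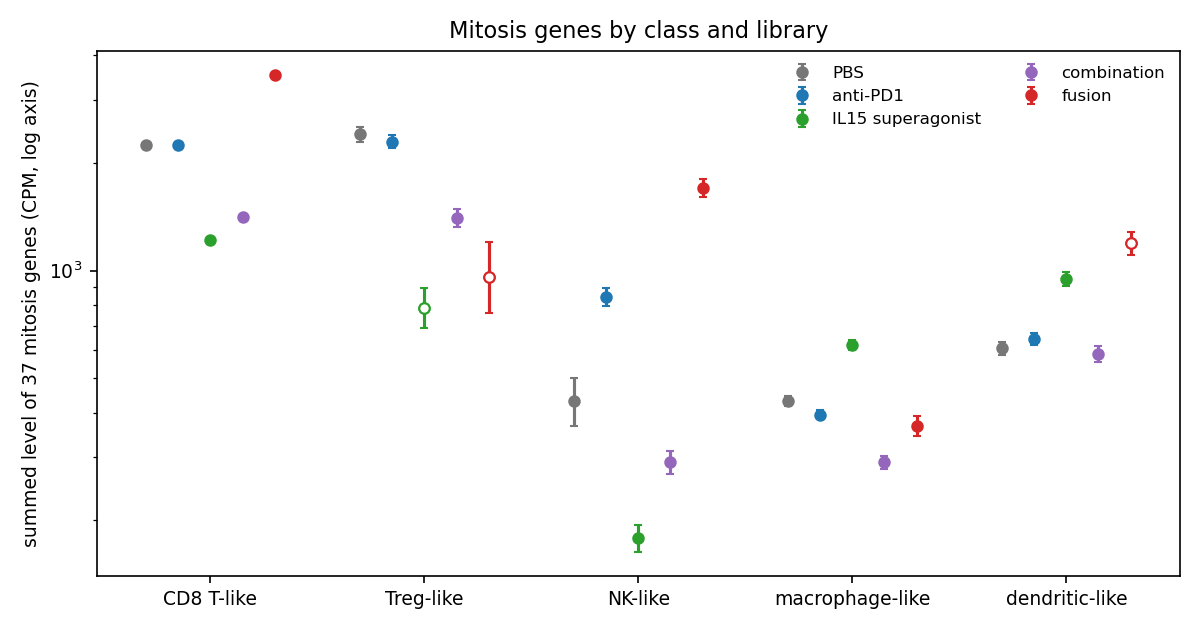
Summed level of the 37 mitosis genes (CPM, log axis) in 5 cell classes, 1 point per library, with exact Poisson 95% intervals for counting error. Open points have fewer than 100 cells. Fusion stands highest in CD8 T-like (3519 CPM) and NK-like cells (1704 CPM), IL15 superagonist lowest in both.

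The members followed this pattern closely but not uniformly. Over the 22 sums of a class and library with at least 100 cells, 26 of the 37 genes had their highest CPM in CD8 T-like cells of fusion, 5 in Treg-like cells of PBS and 6 elsewhere. The Pearson r of each gene's log2(CPM + 1) with the sum of the other 36 genes ran from 0.611 for Aurka to 0.990 for Cenpf, with a median of 0.911. The 22 points share libraries and depth, so these values are a description only. Outside the list, the 10 genes most alike to the sum by this measure had r from 0.960 to 0.979. They were Kntc1, Knstrn, Stmn1, Dlgap5, Brca1, Cit, Ncapg, Hist1h2ae, Hist1h1b and 2810417H13Rik, and 3 of them, Stmn1, Dlgap5 and Ncapg, belonged to a separate list of 47 mitosis genes.

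For CD8 T-like cells, anti-PD1 alone and PBS had equal summed levels, with a ratio of 1.00 (0.979 to 1.02). No member differed by 1.5-fold, against 8.10% of 10650 genes higher and 11.1% lower. The widest differences were 0.51 on the log2 scale for Ccnb2, higher in anti-PD1, and -0.54 for Prc1. The IL15 superagonist level was 1.84-fold lower than PBS (1.80 to 1.89). Of the 37 genes, 28 were at least 1.5-fold lower and 0 higher, while 19.7% of 10825 genes were lower and 14.4% higher. Combination was 1.59-fold lower (1.55 to 1.62), with 23 genes lower and 0 higher, against backgrounds of 19.5% and 11.4%. Fusion was 1.57-fold higher than PBS (1.54 to 1.60), with 20 genes higher and 0 lower, although genes in general were more often lower (29.8%) than higher (17.0%). The ratio was 1.48 with raised gates and 1.46 with ribosomal and mitochondrial genes left out of the total, just under 1.5-fold. With every cell thinned to 1700 UMIs, 30 of the 37 genes were higher, against 19.5% of all genes. Against combination, fusion was 2.49-fold higher (2.46 to 2.52), with 36 genes higher and 0 lower, against 13.1% and 18.7%. Cells weighted equally gave 3.92 at 1700 UMIs per cell and 3.98 as a mean over cells, so this ratio depended on depth weighting. The ratios of IL15 superagonist, combination and fusion to PBS did so too. In these libraries 82.3% to 97.5% of cells had no UMI of Tcf7, a marker described below. At 1700 UMIs per cell they were at 1638 CPM for PBS, 694 for IL15 superagonist, 816 for combination and 2961 for fusion. By ratio, each was farther from PBS than in the sums. Cells with a Tcf7 UMI were at 237, 265, 270 and 1733 CPM in that order. The comparisons with PBS share 1 library, as do both comparisons of fusion.

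**Figure D2:**
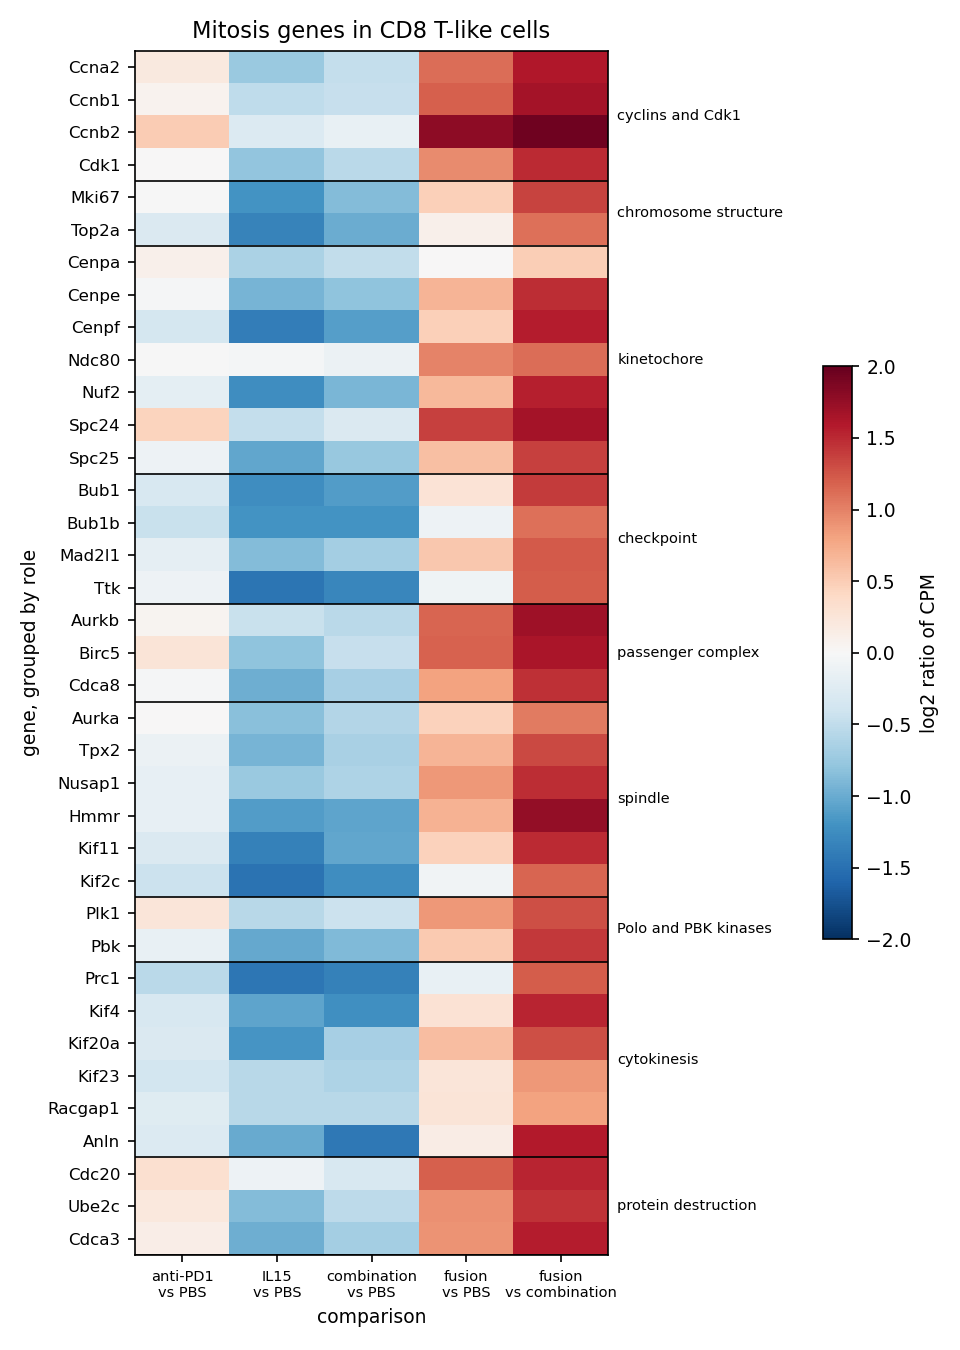
Log2 ratio of CPM for each of the 37 genes in CD8 T-like cells, with genes as rows grouped by role and 5 comparisons as columns; IL15 stands for IL15 superagonist. Blue is lower and red higher in the first library. The superagonist and combination columns hold no red cell, and the last column no blue one.

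By role, fusion and PBS differed most for the drivers of mitotic entry, the cyclins and Cdk1, the kinase they activate. Their sum in CD8 T-like cells was 206 CPM in PBS and 499 in fusion, 2.42-fold higher (2.29 to 2.56), and all 4 genes passed 1.5-fold. For this and every group below, 17.0% of all genes were at least 1.5-fold higher in fusion than in PBS. Ccna2, cyclin A2, was at 77.9 CPM for PBS, 89.5 for anti-PD1, 46.6 for IL15 superagonist, 56.1 for combination and 170 for fusion. Ccnb2, cyclin B2, was at 48.4, 68.7, 39.8, 43.6 and 167 CPM in the same order. Its fusion level stood 3.46-fold above PBS (3.08 to 3.89), the largest ratio of any member. Ccnb2 lies at chr9:70407692-70421547 on the minus strand of mm10. In the superagonist library it was only 1.21-fold below PBS (1.05 to 1.41), while Ccna2 was 1.67-fold below (1.48 to 1.89).

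The chromosomal passenger complex, which corrects attachments of chromosomes to the spindle, came next at 2.11-fold (2.01 to 2.22), with all 3 genes higher in fusion. Birc5, the survivin subunit, was at 149, 179, 85.8, 109 and 338 CPM. Cdca8, borealin, was at 73.0, 72.1, 37.2, 46.3 and 128 CPM. In both genes the order of the libraries matched that of the summed level, except that Cdca8 was slightly lower in anti-PD1 than in PBS. Aurkb, the complex's kinase, was at 32.9 CPM in PBS and 73.8 in fusion.

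Genes for protein destruction around mitosis were 1.91-fold higher in fusion (1.82 to 2.0), again with all 3 past 1.5-fold. Ube2c, which carries ubiquitin for the anaphase-promoting complex, was at 216, 249, 118, 150 and 408 CPM. Cdca3, which helps degrade the mitotic brake Wee1, was at 64.8, 71.4, 32.9, 40.7 and 122 CPM. Both stood lowest in the superagonist library and highest in fusion. Cdc20, the activator of the anaphase-promoting complex, was at 17.4, 21.9, 16.2, 13.9 and 39.9 CPM, so the superagonist library was near PBS for this gene.

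Among spindle genes, 3 of 6 passed 1.5-fold in fusion against PBS, and the sum was 1.55-fold higher (1.47 to 1.64). Nusap1, which bundles microtubules, was at 52.4, 46.7, 31.3, 34.3 and 95.8 CPM. Tpx2, the activator of Aurora A, was at 49.2, 45.6, 25.8, 31.4 and 78.6 CPM. Hmmr, the third to pass, was at 27.2 CPM in PBS and 44.4 in fusion, while Kif2c, a microtubule-shortening motor, was at 12.4 and 11.8. In the superagonist library all 6 were at least 1.5-fold lower than PBS, against 19.7% of all genes. The Polo and PBK kinases summed to a 1.61-fold higher level (1.39 to 1.87). Plk1, which acts from mitotic entry to exit, was at 13.5, 16.1, 9.23, 10.1 and 24.8 CPM, and its fusion level was 1.83-fold above PBS (1.47 to 2.30). Pbk, a mitotic kinase, was at 17.4, 15.8, 8.56, 9.43 and 25.1 CPM and stayed under 1.5-fold, at 1.44 (1.18 to 1.77).

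Kinetochore genes, which tie chromosomes to microtubules, were split. Their sum was 1.30-fold higher in fusion (1.26 to 1.35), and 5 of 7 passed 1.5-fold. Spc24, a subunit of the Ndc80 complex, was at 46.3, 62.8, 33.2, 37.9 and 120 CPM. Cenpa, the histone that marks centromeres, was at 341, 366, 220, 243 and 341 CPM, equal in PBS and fusion with a ratio of 1.00 (0.958 to 1.05). Cenpa was also the 1 member that did not reach 1.5-fold in fusion against combination, at 1.40 (1.36 to 1.45). In the superagonist library Ndc80 was the member nearest to PBS, at 15.1 against 15.5 CPM.

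In these sums, where deeper cells weigh more, the other groups differed less between fusion and PBS. With every cell thinned to 1700 UMIs, 30 of the 37 members passed 1.5-fold, against 20 in the sums. The role groups were not compared at that setting, so their order holds for the sums only. Checkpoint genes, which hold anaphase until all chromosomes are attached, were 1.21-fold higher in sum (1.11 to 1.32), with 0 of 4 past 1.5-fold. Mad2l1 was at 36.8, 32.4, 20.1, 22.9 and 53.8 CPM, and Bub1b at 26.3, 19.4, 11.5, 11.5 and 24.5 CPM. All 4 checkpoint genes were at least 1.5-fold below PBS in the superagonist and in the combination library, against 19.7% and 19.5% of all genes. For chromosome structure the ratio was 1.20 (1.15 to 1.25), with neither gene past 1.5-fold. Mki67, the Ki-67 coat protein of mitotic chromosomes, was at 159, 158, 69.5, 86.9 and 221 CPM. Top2a, the enzyme that untangles sister DNA, was at 246, 202, 97.6, 124 and 266 CPM. It was 2.53-fold lower in the superagonist library than in PBS (2.34 to 2.73), so this pair spread more downward than upward from PBS.

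Cytokinesis genes were nearest to equal in these sums, at 1.13-fold (1.07 to 1.21). Of the 6, only Kif20a passed 1.5-fold, a share close to the 17.0% of all genes that were higher. Racgap1, part of the centralspindlin complex, was at 62.9, 53.2, 43.0, 43.0 and 75.0 CPM. Prc1, which crosslinks the central spindle, was at 52.9, 36.5, 19.5, 20.6 and 47.8 CPM. At 0.903 (0.806 to 1.02) it had the lowest ratio of fusion to PBS, and its interval included equality. Bub1b, Ttk and Kif2c were the other members below PBS, with intervals that also included it. Anln, the least counted of the 6, was at 6.93 CPM in PBS and 7.80 in fusion.

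Mitosis UMIs were also counted cell by cell. Each cell was thinned at random to 1700 UMIs, and a cell with at least 3 UMIs from the 37 genes was called mitosis-high. This is a range cut from a count and not a cell type. Of CD8 T-like cells, the mitosis-high share was 23.7% for PBS (interval 21.1 to 26.6) and again 23.7% for anti-PD1 (21.2 to 26.3). It was 7.86% for IL15 superagonist (6.72 to 9.12), 9.69% for combination (8.70 to 10.8) and 48.9% for fusion (47.7 to 50.1). Without thinning the shares were 43.6%, 47.6%, 22.4%, 27.0% and 71.6%, with median depths of 5326, 6085, 4444, 4901 and 8930 UMIs. At equal depth, 20.5% of fusion cells had 10 or more of their 1700 UMIs from these genes, against 10.6% in PBS and 2.94% in the superagonist library. Between 8.66% and 16.6% of cells lay near the cut, at 2 to 4 UMIs. Neutrophil-like cells, which do not divide, held 1 mitosis-high cell in all: 0 of 19 in PBS, 1 of 51 in anti-PD1, 0 of 29, 0 of 28 and 0 of 1, at median depths of 2536 to 2930 UMIs. By the limit of 3 counts of the total used for a count of 0, 0 of 19 allows a share of up to 15.8%, and the exact Clopper-Pearson upper bound is 17.6%.

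**Figure D3:**
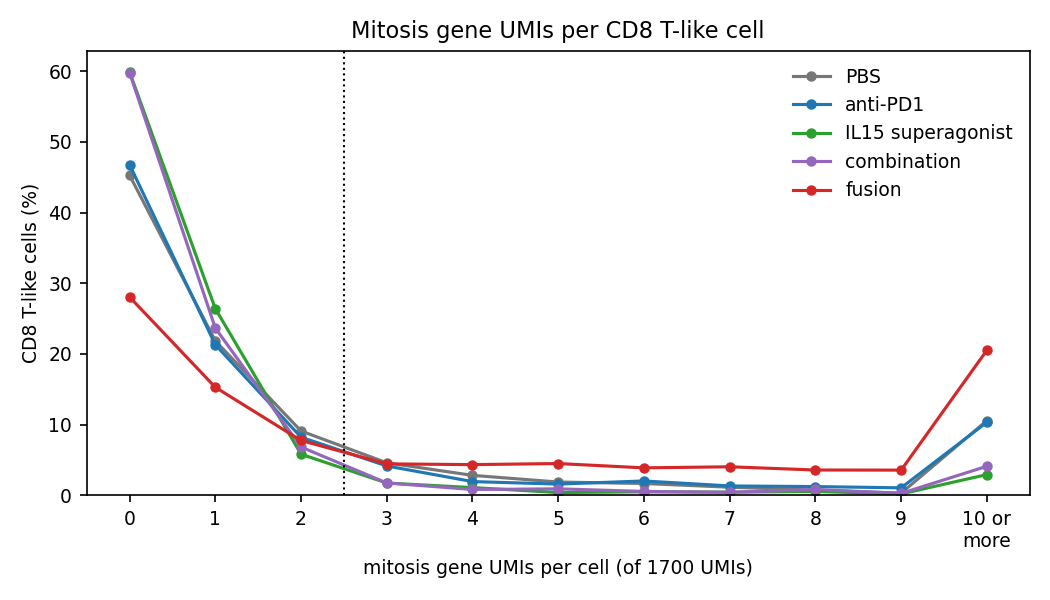
Percent of CD8 T-like cells of each library (y) by the number of mitosis gene UMIs in 1700 UMIs per cell (x); the dotted line marks the cut of 3. Fusion has the fewest cells at 0 UMIs (28.1%) and the most at 10 or more (20.5%).

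The CD8 T-like cells above and below the cut were then described separately. The cut used the 37 genes themselves and so partly sets their level on each side, which cannot show whether the sums differed through more cells or through more RNA in each. Mitosis-high cells were at 5188 CPM for PBS, 5227 for anti-PD1, 5210 for IL15 superagonist, 5364 for combination and 5486 for fusion, and held 79.3% to 93.2% of the class's mitosis UMIs. Cells below the cut were at 485, 465, 309, 311 and 598 CPM, with fusion again the highest. The 36 DNA replication genes, which the cut did not use directly, were at 4014, 4061, 3762, 3843 and 4144 CPM in mitosis-high cells. Below the cut they were at 1630, 1571, 997, 1153 and 2386 CPM. The replication level spread little between libraries above the cut and widely below it, with fusion highest on both sides. In every library it was higher above the cut than below it. The cut therefore also chose cells rich in replication RNA, and the spread above it is given for description only. Counts of members among mitosis-high cells are given for description, and nothing is read from them. In fusion against combination 0 of the 37 genes differed by 1.5-fold, with backgrounds of 8.41% higher and 12.5% lower. In fusion against PBS 4 genes were higher (Ccnb1, Ccnb2, Spc24 and Cdc20) and 4 lower (Bub1b, Ttk, Kif2c and Prc1), with backgrounds of 16.8% and 28.0%. Ccnb2 was at 110, 162, 181, 178 and 254 CPM among mitosis-high cells. Prc1 was at 126, 88.8, 81.9, 74.2 and 75.2 CPM, and Cenpa at 628, 683, 637, 646 and 495 CPM. These levels come from cells chosen by the same genes, so their order is not read as a difference between libraries.

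Which CD8 T-like cells were mitosis-high was described by marker RNAs. Tcf7 encodes TCF1, a factor of stem-like and resting T cells. Among cells with a Tcf7 UMI, the share was 1.75% for PBS (1 of 57), 4.00% for anti-PD1, 1.69% for IL15 superagonist, 1.23% for combination and 22.4% for fusion (37 of 165, interval 16.3 to 29.6). Cells without one were at 25.1%, 26.1%, 9.18%, 10.9% and 49.6%. In each library the Tcf7 cells had the lower share. The share of Tcf7 cells in fusion overlapped in its interval with that of cells without Tcf7 in PBS (22.3 to 28.1). Cells with a UMI of Gzmc, Gzmd, Gzme, Gzmf or Gzmg, granzymes of strongly stimulated killer cells, were at 28.2%, 47.5%, 21.4%, 19.9% and 51.5%. These cells made up 4.08%, 8.93%, 12.1%, 9.54% and 57.0% of the class, most in fusion. Macrophage-like cells, which should lack these granzymes, had such a UMI in 0.170%, 0.591%, 1.47%, 1.20% and 15.6% of cells, at median depths of 5647 to 8115 UMIs before thinning against 4444 to 8930 in CD8 T-like cells. That share too was highest in fusion, so a single UMI does not show that a cell made the granzyme, and the part of free RNA in this split was not tested. Cells with none of these granzymes were at 23.6%, 21.4%, 6.0%, 8.61% and 45.4%. Cells with a UMI of Gzma, a granzyme also made by memory and NK cells, had the lower share in each library, at 19.0%, 18.0%, 5.03%, 5.19% and 44.7%, against 24.0%, 24.4%, 9.11%, 11.5% and 50.2% of cells without one. By these point values the Gzma split and the split by the other granzymes ran in opposite directions. In PBS both rest on few cells, and their intervals overlapped. They were 8.60 to 34.1 with Gzma (8 of 42) and 21.2 to 26.9 without. For the other granzymes they were 15.0 to 44.9 (11 of 39) and 20.8 to 26.4. In anti-PD1 the Gzma intervals also overlapped (11.7 to 26.0 and 21.8 to 27.2). Macrophage-like cells had a Gzma UMI in 1.02% to 3.48%, and a Tcf7 or Pdcd1 UMI in at most 0.394% and 1.45%. Dendritic-like cells had a Gzma UMI in up to 4.55% (fusion) and a Pdcd1 UMI in up to 3.33% (combination). They had a Tcf7 UMI in 3.41% for PBS and 2.54% for anti-PD1, against 5.96% and 11.1% of CD8 T-like cells. In IL15 superagonist, combination and fusion, 0 dendritic-like cells had one. The part of free RNA in these splits was not tested. Cells with a UMI of Pdcd1, which encodes PD-1, were at 27.6%, 27.0%, 11.3%, 12.3% and 48.4%, and cells without one at 20.8%, 20.4%, 5.69%, 7.62% and 50.3%. The marker UMIs were read, like those of the mitosis genes, after thinning to the same number of UMIs per cell.

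NK-like cells had few mitosis UMIs outside fusion and anti-PD1. The sum was 3.96-fold higher in fusion than in PBS (3.36 to 4.68) and 5.86-fold higher than in combination (5.35 to 6.42). It was 1.96-fold higher in anti-PD1 than in PBS (1.66 to 2.32), 2.41-fold lower in IL15 superagonist (2.01 to 2.88) and 1.48-fold lower in combination (1.25 to 1.75). The PBS value rests on 166 member UMIs in 110 cells, and counts of members are not given because not all 37 reached 20 UMIs in any comparison. Mitosis-high cells were 3 of 110 for PBS, 20 of 296 for anti-PD1, 4 of 687 for IL15 superagonist, 8 of 579 for combination and 19 of 124 for fusion, or 15.3% (9.48 to 22.9). Single genes rest on few UMIs, most of all in PBS, and not all followed the sum. Kif23 had the lowest log2 ratio of the tested members in anti-PD1 against PBS (-0.98) and in fusion against combination (-0.23). Birc5 was at 7.78, 57.5, 3.86, 7.97 and 112 CPM, Ube2c at 23.4, 57.5, 5.61, 9.49 and 135 CPM, and Racgap1 at 28.5, 28.8, 22.5, 22.0 and 63.5 CPM.

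The NK-like results in PBS depended on processing. With raised gates, which left 7 PBS cells, anti-PD1 stood at 5.44, IL15 superagonist at 0.691, combination at 1.97, now above PBS, and fusion at 9.63 times PBS. At 1700 UMIs per cell the anti-PD1 ratio was 1.33, and without cells holding a UMI of another lineage's markers it was 1.28. Against anti-PD1 in place of PBS, superagonist, combination and fusion were at 0.212, 0.345 and 2.02 times. T-cell list markers in NK-like cells were at 22.3 to 52.6 CPM, with Cd3e and Cd8b1 at 0 by the gate, and the myeloid list at 274 to 846 CPM; their part in the result was not tested.

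**Figure D4:**
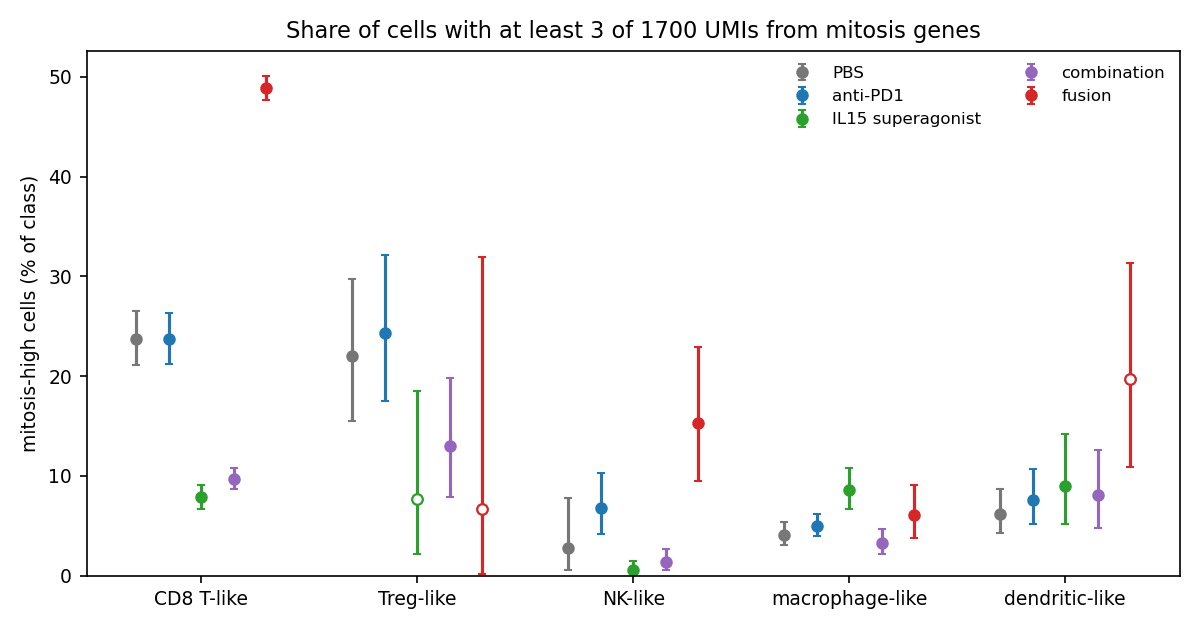
Percent of cells of each class (y) with at least 3 of 1700 UMIs from the mitosis genes, 1 point per library, with exact Clopper-Pearson 95% intervals. Open points have fewer than 100 cells. CD8 T-like cells of fusion reach 48.9%, while macrophage-like cells stay between 3.23% and 8.57%.

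Macrophage-like cells showed a different order of treatments. Their summed level was 1.44-fold higher in IL15 superagonist than in PBS (1.37 to 1.5), with 22 of 37 genes at least 1.5-fold higher and 0 lower, against 7.87% and 8.89% of 10538 genes. Combination was 1.48-fold lower (1.41 to 1.57), with 22 genes lower and 0 higher, against 14.2% and 5.01%. In anti-PD1 the level was 1.09-fold lower than PBS (1.05 to 1.14), with 2 genes higher and 4 lower, against 6.12% and 12.1%. Mitosis-high macrophages were 4.09% for PBS (3.03 to 5.38), 4.99% for anti-PD1, 8.57% for IL15 superagonist (6.66 to 10.8), 3.23% for combination (2.14 to 4.66) and 6.07% for fusion (3.80 to 9.13). The superagonist ratio was 1.73 at 1700 UMIs per cell and 1.63 as a mean over cells. At equal depth the anti-PD1 and fusion ratios to PBS turned from 0.916 to 1.05 and from 0.852 to 1.15, so their direction depended on how cells were weighted. Fusion against combination was 1.26 (1.17 to 1.37) in the sum and 0.998 without cells holding a UMI of another lineage's markers.

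All 3 passenger genes and both kinase genes were higher in macrophages of the superagonist library, where 7.87% of all genes were at least 1.5-fold higher. Birc5 was at 33.9 CPM for PBS, 35.1 for anti-PD1, 60.5 for IL15 superagonist, 26.6 for combination and 35.9 for fusion. Pbk was at 3.81, 2.11, 8.19, 1.69 and 1.54 CPM, the widest ratio of the comparison at 2.15 (1.36 to 3.47). Cenpa did not share the pattern, at 73.7, 61.3, 71.7, 43.8 and 47.8 CPM. In combination all 4 cyclin and Cdk1 genes and 5 of 6 cytokinesis genes were at least 1.5-fold below PBS, against 14.2% of all genes. Cdk1 was at 8.71 against 16 CPM. None of the 3 passenger genes was that far below PBS, which is not far from the share of all genes. In mitosis-high macrophages of fusion the T-cell list was at 128 CPM, against 31.9 in the other macrophages of that library and at most 14.7 in mitosis-high macrophages elsewhere; its part in the fusion values was not tested.

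In Treg-like cells PBS and anti-PD1 had levels like those of CD8 T-like cells, and combination was 1.72-fold lower than PBS (1.59 to 1.85). This was 0.583 of PBS, and it was 0.691 with raised gates, 0.710 at equal depth and 0.755 without cells holding other lineages' markers. Anti-PD1 stood at 0.954 of PBS (0.896 to 1.02) and turned to 1.14 at equal depth. Mitosis-high Treg-like cells were 31 of 141 for PBS, 35 of 144 for anti-PD1, 4 of 52 for IL15 superagonist, 18 of 138 for combination and 1 of 15 for fusion. Mki67 was at 229, 186, 74.8, 163 and 36.9 CPM, and Ube2c at 231, 202, 22.8 and 114 CPM with a count of 0 in the 15 fusion cells. The myeloid list was at 36.9 to 307 CPM in this class, lowest in fusion and highest in anti-PD1, and its part was not tested.

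Dendritic-like cells of IL15 superagonist had a 1.56-fold higher level than PBS (1.47 to 1.66). Without cells holding a UMI of another lineage's markers the ratio was 1.13, and against anti-PD1 it was 1.47. The T-cell list was at 15.4 to 27.9 CPM in this class, highest in the superagonist library. Combination was at 0.964 of PBS (0.90 to 1.03) and turned to 1.29 at equal depth. Anti-PD1 was at 1.06 (1.00 to 1.12). Mitosis-high cells were 6.22% for PBS, 7.61% for anti-PD1, 8.99% for IL15 superagonist, 8.10% for combination and 19.7% for fusion (13 of 66, 10.9 to 31.3). Cells with Xcr1 or Clec9a, genes of cross-presenting dendritic cells, were at 18.3%, 16.9%, 19.1%, 18.4% and 20.8%. They made up 82 of 498 cells of the class for PBS, 77 of 394 for anti-PD1, 47 of 178 for IL15 superagonist, 38 of 210 for combination and 24 of 66 for fusion, so the make-up of the class differed between libraries. Cells with at least 3 UMIs of Ccr7, Fscn1 and Ccl22, genes of the mature state, were at 0 of 156, 1 of 100, 0 of 36, 1 of 29 and 0 of 13. For 0 of 156 the limit of 3 counts is 1.92% and the exact upper bound 2.34%. The remaining cells were at 6.15%, 7.37%, 7.37%, 6.29% and 27.6%, the last being 8 of 29 cells (12.7 to 47.2). Ccnb2 was at 18.8, 22.0, 61.5, 25.9 and 42.5 CPM in the class as a whole.

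Mitosis UMIs were then set beside UMIs of the 36 DNA replication genes, which act earlier in the cycle. In CD8 T-like cells there were 0.889 mitosis UMIs per replication UMI for PBS (0.869 to 0.910), 0.897 for anti-PD1, 0.807 for IL15 superagonist, 0.812 for combination and 1.02 for fusion (1.02 to 1.03). The balance was therefore lowest where the level was lowest and highest where it was highest. In NK-like cells it was 0.473, 0.607, 0.228, 0.364 and 0.90. In macrophage-like cells it was 0.725, 0.706, 0.750, 0.535 and 0.671. In dendritic-like cells it was 0.799, 0.777, 1.38, 0.972 and 1.07, highest in the superagonist library. In Treg-like cells it was 1.04, 1.37, 0.366, 0.727 and 0.310, the third and the fifth from 52 and 15 cells. There anti-PD1 had the highest balance, although its summed mitosis level was slightly below that of PBS.

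**Figure D5:**
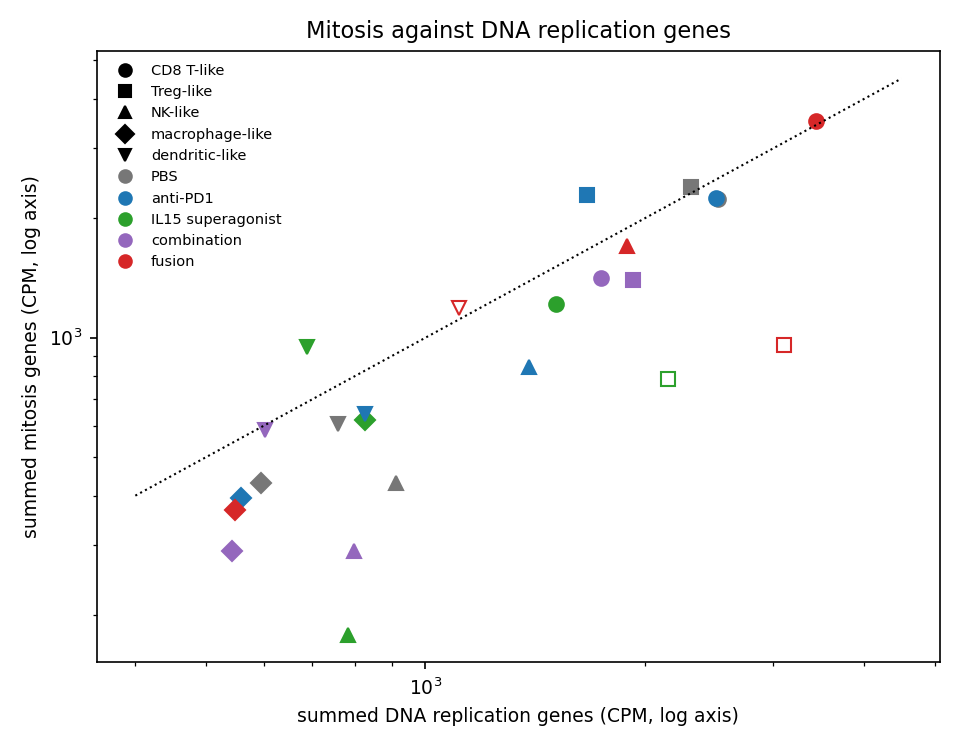
Summed mitosis genes against summed DNA replication genes (both CPM, log axes) for 5 classes (shapes) and 5 libraries (colors); open symbols have fewer than 100 cells and the dotted line marks equal sums. CD8 T-like cells of fusion lie on the line (1.02 mitosis UMIs per replication UMI), and NK-like cells of IL15 superagonist farthest below it (0.228).

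Other cell cycle lists differed in the same direction as the members in CD8 T-like cells. Of 36 replication genes, 26 were at least 1.5-fold lower in IL15 superagonist than in PBS and 0 higher, with a median log2 ratio of -0.73, against -0.93 for the 37 members and -0.06 for all genes. In fusion against PBS 15 were higher and 0 lower, with a median of 0.47 against 0.62 for the members and -0.14 for all genes. Of 47 other mitosis genes, 35 were lower and 0 higher in IL15 superagonist, and 21 were higher and 1 lower in fusion. Over all genes, 19.7% were lower and 14.4% higher in IL15 superagonist, and 17.0% higher and 29.8% lower in fusion. In macrophage-like cells of combination the lists parted. There 1 of 36 replication genes was at least 1.5-fold lower and 2 higher, with a median log2 ratio of -0.01, while the median of the 37 mitosis genes was -0.67. The other mitosis genes lay between, with 13 of 39 tested lower, 0 higher and a median of -0.30. Over all genes 14.2% were lower and 5.01% higher.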

How the data were processed

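Single-cell UMI counts per gene and barcode are whole numbers deposited by the authors; the submitters' processing notes name Cell Ranger 2.1.1 and build mm10. How barcodes were filtered before deposit is not stated there. Libraries held 6015 to 8747 barcodes and 32832856 to 81565425 UMIs. Barcodes with under 200 genes, over 10% mitochondrial UMIs, or markers of 2 lineages (2 genes and 3 UMIs each) were left out. The last rule stood in for a doublet caller and removed 1.87% to 3.84% of barcodes. Classes were gated on marker UMIs, and 1376 to 3451 barcodes per library met no gate. Doublets within a class remain.

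UMIs were summed per class and library as CPM, with exact Poisson intervals. Ratios have exact conditional binomial intervals and shares exact Clopper-Pearson ones. A class was compared where each library held 100 cells or more. Genes with 20 UMIs or more in the pair of libraries were counted as higher or lower from 1.5-fold on, with 0.5 added to every count. Members are counted only where all 37 had 20 UMIs, and the percent beside a count is that over all genes. By rule, named members are the 2 with most UMIs of each of 9 role groups, and the extremes of fusion against PBS in CD8 T-like cells. Further members, among them Aurkb, Cdc20, Hmmr, Kif2c, Ndc80, Anln and Kif23, were named outside that rule. UMI totals of different genes were not compared as expression levels. The members, lists and tests were chosen with earlier results of these data known. The ratio code was tested on simulated data. Python 3.11.15, numpy 2.4.6, scipy 1.17.1 and pandas 2.3.3 were used.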

Additional observations from a re-analysis of the deposited data

Results flagged for a closer look

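In 3 comparisons with PBS the summed mitosis UMIs were higher in at least 1 class and lower in at least 1 other. The pair of classes farthest apart is given for each, and these differences between classes were not tested. For anti-PD1 they were 1.96-fold higher in NK-like and 1.09-fold lower in macrophage-like cells, a gap of 1.10 on the log2 scale. At equal depth the macrophage ratio was 1.05, so the opposite direction was not kept. For IL15 superagonist they were 1.56-fold higher in dendritic-like and 2.41-fold lower in NK-like cells, a gap of 1.91. They were also 1.44-fold higher in macrophage-like and 1.84-fold lower in CD8 T-like cells. The dendritic ratio came nearer to PBS without cells holding a UMI of another lineage's markers, and the NK ratio with raised gates. For fusion they were 3.96-fold higher in NK-like and 1.17-fold lower in macrophage-like cells, a gap of 2.22, and at equal depth the macrophage ratio was 1.15, above PBS.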

How the results depend on the processing

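No paired analysis was possible because each treatment has 1 library. Beside each count of members below stands the percent of all genes called at the same setting. In CD8 T-like cells, thinning to 1700 UMIs gave 4 members at least 1.5-fold higher in anti-PD1 than in PBS (9.87% of all genes), against 0 in the unthinned counts. The 20 higher in fusion than in PBS became 30 when thinned (19.5%) and 16 with raised gates (16.9%). They became 15 with ribosomal and mitochondrial genes left out of the total (14%). A 2-fold limit left 16 members lower in IL15 superagonist (8.52%), 10 lower in combination (7.79%) and 7 higher in fusion (7.75%). For macrophage-like cells of anti-PD1, the 4 lower members became 2 of 19 tested when thinned (14.1%), 0 at 2-fold (3.5%) and 1 of 26 with a minimum of 100 UMIs (8.2%). The 22 higher in IL15 superagonist became 14 with cells of 2 lineages kept (7.73%), 7 of 16 tested when thinned (8.83%), 13 without cells holding a UMI of another lineage (7.37%, an alternative chosen after seeing the data), 3 at 2-fold (2.23%) and 12 of 23 with a minimum of 100 UMIs (4.78%). The 22 lower in combination became 6 of 15 when thinned (15.7%), 2 at 2-fold (3.94%), 10 of 16 with 100 UMIs (9.62%) and 11 against anti-PD1 (6.72%). Of the 20 ratios of summed UMIs, thinning turned the direction of 5, a mean over cells of 5, leaving out cells with a UMI of another lineage of 4, raised gates of 3, and leaving out the 2 members with most UMIs, or ribosomal and mitochondrial genes, of 1 each; keeping cells of 2 lineages turned 0, and so did anti-PD1 as reference among the 12 ratios it was run for. The cause was not tested. Every share of mitosis-high cells moved beyond its interval without thinning (25 of 25). Classes of few cells, NK-like in PBS and Treg-like and dendritic-like in fusion, limit what could be compared, and low counts limit single members outside CD8 T-like cells.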
